A study of Mus musculus with 9 samples.

Results

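The genes described here are 8 serotonin receptor genes, Htr1a, Htr1b, Htr2a, Htr2c, Htr3a, Htr4, Htr5a and Htr7, taken by name out of the 23412 gene symbols measured in the hippocampus of mice at postnatal day 21. All 8 are listed, and all 8 passed the filter on low values. The libraries are bulk poly(A) RNA sequencing of wild-type mice in 3 groups of 3. In the PFOS P1-7 group, pups were nursed from postnatal day 1 to day 7 by dams gavaged daily with perfluorooctane sulfonate (PFOS), a persistent perfluorinated surfactant, at 1 mg/kg body weight. In the PFOS P8-14 group, the dams received that same dose from day 8 to day 14. The control group is labelled sham, and what its dams were given is not stated. Strain and sex are not given in the labels, and all mice were sampled at the same age. The exposure reached the pups through milk. The labels do not say whether libraries are separate animals, so p-values measure the spread between these libraries, which may be technical. The stated question was whether the exposure window matters for the developing hippocampus.

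Serotonin fibres reach the hippocampus from the raphe nuclei of the brainstem, so the hippocampus holds the receptors but few or none of the cell bodies that make serotonin. Htr1a, Htr1b and Htr5a encode receptors coupled to inhibitory Gi/o proteins, Htr2a and Htr2c receptors coupled to Gq and phospholipase C, and Htr4 and Htr7 receptors coupled to Gs and adenylyl cyclase. Htr3a is the exception, a subunit of a ligand-gated cation channel found in a class of inhibitory interneurons. Htr2c is also abundant in the choroid plexus, the secretory epithelium of the brain ventricles that lies against the hippocampus and makes transthyretin (Ttr).

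Values below are TPM, the length-scaled abundance deposited by the authors, so levels can be compared between genes. TPM keep no read depth, so the depth is unknown and low levels carry no counting interval. Differences are on the log2(TPM + 1) scale, on which the change of low genes is understated. They come from limma fitted over the 14336 genes that reached 1 TPM in 3 or more libraries, and a call is a Benjamini-Hochberg adjusted p below 0.05.

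The 9 libraries do not hold equal amounts of choroid plexus RNA. Ttr stood at 11626, 39.6 and 10042 TPM in PFOS P1-7 replicates 1 to 3, at 9446, 9864 and 107.7 TPM in PFOS P8-14, and at 52.8, 35.1 and 10420 TPM in control. High Ttr was therefore found in 5 libraries, 2 of PFOS P1-7, 2 of PFOS P8-14 and 1 control. All 18 choroid plexus markers examined were higher in each of these 5 than in each of the other 4. The markers other than Ttr summed to 149.3 to 1433 TPM in PFOS P1-7, 164.5 to 1716 TPM in PFOS P8-14 and 123 to 671.6 TPM in control. Only Tmem72 and Steap1 were at 0 in a library, each in 1. Markers of the labelled tissue were present throughout: the dentate granule neuron list summed to 186.9 TPM or more in every library, and the CA1 pyramidal list to 458.4 TPM or more. Blood and platelet genes summed to 66.5 to 1385 TPM in PFOS P1-7, 14.9 to 587.1 TPM in PFOS P8-14 and 15.5 to 2351 TPM in control. The spread of that sum is nearly all Hba-a1, at 0 to 2333 TPM over the libraries. Alas2 stood at 6.43 to 14.77 TPM and Pf4 at 1.39 to 4.85 TPM. In control replicate 1 Hba-a1 was at 0 and Alas2 at 11.9 TPM, so the sum does not measure blood content. Markers of raphe serotonin neurons summed to at most 1.74 TPM. Libraries also differed in a trend over transcript length. Across genes, which are not independent replicates, Spearman's rho between length and a gene's deviation was 0.09, 0.27 and 0.11 in PFOS P1-7, 0.11, -0.09 and 0.17 in PFOS P8-14, and 0.11, -0.27 and -0.31 in control.

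No serotonin receptor gene was called in any of the 3 comparisons. The background was the same, since 0 of 14336 genes (0%) were called in each. At an unadjusted p below 0.05, PFOS P1-7 exceeded control for 2 of the 8 genes, Htr2a and Htr4, and for 12.5% of all tested genes (18.3% in either direction). PFOS P8-14 exceeded control for 1 of the 8, Htr4, and for 6.33% of all tested genes (11.0% in either direction). None of the 8 was lower at such a p. Between the exposure windows none had such a p, against 0.467% of all genes higher and 0.635% lower in PFOS P8-14, 1.10% together. In PFOS P1-7, all 8 log2 differences from control were above 0, as were 65.5% of all genes, with a median of 0.23 for the 8 and 0.09 for all genes. Under median-of-ratios scaling, Htr1a, Htr5a and Htr7 were below 0 in that comparison and the median of all genes was 0.01. In PFOS P8-14, 6 of 8 were above 0, against 62.1% of all genes, with medians of 0.28 and 0.06. Both comparisons use the same 3 control libraries. In the F test over the 3 groups, none of the 8 was called either, and Htr4 had the smallest p of them (adjusted p = 0.448, limma). PFOS P8-14 against PFOS P1-7 gave 4 above and 4 below 0, where 38.8% of all genes were above, with medians of -0.03 for the 8 and -0.03 for all genes.

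Upstream sequences are shown for the 3 members whose levels varied most between libraries. They are the 250 bases before the RefSeq start of Htr1b and Htr2a, the pair of members with the most similar profile over the 9 libraries, and of Htr2c, which stood with the choroid plexus markers. Each is read 5′ to 3′ on the gene's strand (build GRCm38.p6, that is mm10): Htr1b at chr9:81633833-81634082 (minus strand), Htr2a at chr14:74640624-74640873 (plus) and Htr2c at chrX:146962263-146962512 (plus). In the GENCODE annotation Htr2a starts at 74640840, inside its window, so the last bases shown lie within the gene as placed there. Distances below are from the RefSeq start. Capitals mark matches to CCAAT or GGGCGG on either strand.
Htr1b: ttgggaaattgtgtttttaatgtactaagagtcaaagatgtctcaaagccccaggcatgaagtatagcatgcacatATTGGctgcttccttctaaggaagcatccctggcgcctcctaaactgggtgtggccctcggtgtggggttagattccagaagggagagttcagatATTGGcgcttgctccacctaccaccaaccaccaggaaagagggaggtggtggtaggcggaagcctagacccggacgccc
Htr2a: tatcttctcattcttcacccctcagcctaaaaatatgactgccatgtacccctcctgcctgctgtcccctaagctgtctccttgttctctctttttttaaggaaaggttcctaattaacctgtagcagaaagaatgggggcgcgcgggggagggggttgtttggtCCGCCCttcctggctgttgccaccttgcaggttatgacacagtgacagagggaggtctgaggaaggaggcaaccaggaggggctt
Htr2c: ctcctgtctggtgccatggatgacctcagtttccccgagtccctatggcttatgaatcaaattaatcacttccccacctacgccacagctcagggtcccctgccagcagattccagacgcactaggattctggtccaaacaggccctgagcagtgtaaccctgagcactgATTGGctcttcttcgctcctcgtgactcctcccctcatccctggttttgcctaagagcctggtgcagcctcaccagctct
The motifs searched, on both strands, were the TATA box (TATAAA), the core of a cyclic AMP response element (TGACG), the GC box (GGGCGG), an E-box form (CAGGTG) and the CCAAT box (CCAAT), and none of the matches shown overlaps another. Htr1b holds CCAAT in reverse (written ATTGG) beginning 174 and 79 bases before the start, and Htr2c 80 bases before it. Htr2a holds no CCAAT but has GGGCGG in reverse (CCGCCC) 85 bases before the start. Of 32851 mouse promoters in the same table, 33.8% hold CCAAT and 32.7% hold GGGCGG in this window, so both are common. None of the 3 windows holds the other motifs searched, which are in 12.4% (TATA box), 17.8% (TGACG) and 17.2% (E-box form) of all promoters.

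Htr2c was the most abundant member. It lies on the X chromosome (146962513 to 147197277, plus strand, mm10), spans 234765 bases and has 7 annotated transcripts. Its level was 41.9, 22.9 and 37.3 TPM in PFOS P1-7 replicates 1 to 3, 52.7, 37.9 and 18.55 TPM in PFOS P8-14, and 25.6, 14.9 and 31.2 TPM in control. The groups overlapped, and each group held both high and low libraries. The 5 libraries with high Ttr had 31.2 to 52.7 TPM of Htr2c, above every one of the other 4, at 14.9 to 25.6 TPM. Of all tested genes, 4.12% were higher in these 5 libraries in that way. Within the 5, control replicate 3 had both the lowest choroid marker sum (671.6 TPM) and the lowest Htr2c, and PFOS P8-14 replicate 1 the highest of both (1716 and 52.7 TPM). Ttr itself did not follow that order, since among the 5 it was lowest in PFOS P8-14 replicate 1 (9446 TPM) and second highest in control replicate 3 (10420 TPM). Among the 4 libraries with low Ttr, Htr2c was 22.9 TPM in the PFOS P1-7 library, 18.55 TPM in the PFOS P8-14 library, and 25.6 and 14.9 TPM in the 2 control libraries, so there the exposed libraries lay between the controls.

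**Figure D1:**
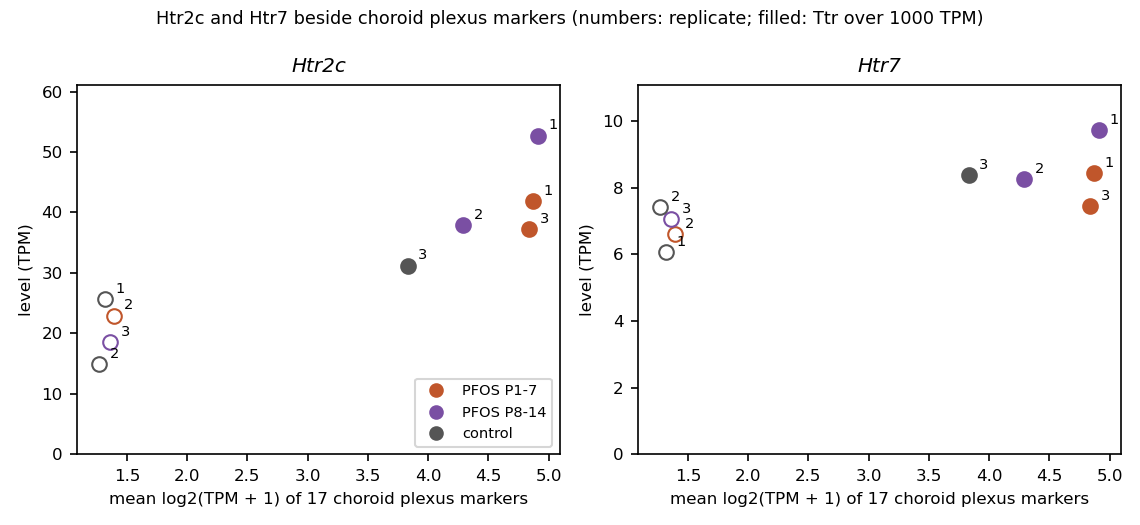
Level of Htr2c (left) and Htr7 (right) in TPM against the mean log2(TPM + 1) of 17 choroid plexus markers other than Ttr, 1 point per library, coloured by group, filled where Ttr exceeds 1000 TPM and numbered by replicate. The 5 filled points lie above the 4 open ones in both panels. At the closest they stand at 31.2 against 25.6 TPM for Htr2c and at 7.45 against 7.41 TPM for Htr7.

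The log2 difference of Htr2c was 0.51 (SE 0.38, adjusted p = 0.470) in PFOS P1-7 against control and 0.53 (SE 0.38, adjusted p = 0.563) in PFOS P8-14 against control, with 95% confidence intervals of -0.35 to 1.36 and -0.33 to 1.38. With log2(Ttr + 1) as a covariate these were 0.21 and 0.18. With the mean of the 17 other choroid markers as a covariate, a setting chosen after seeing the data, they were 0.05 and 0.12. In that fit Htr2c increased by 0.29 log2 units (SE 0.05, adjusted p = 0.0227) per unit of the marker mean, and it was the only one of the 8 genes with a called slope, against 2.05% of all tested genes. The marker mean was 1.27 to 1.39 in the 4 libraries with low Ttr and 3.83 to 4.91 in the 5 with high Ttr. The slope is therefore mostly a contrast between these clusters of libraries. The slope on Ttr itself was 0.12 (SE 0.03, adjusted p = 0.0589). In bulk tissue, fewer cells of a type and less RNA per cell cannot be told apart.

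Htr2a, the other Gq-coupled member, was the least abundant of the 8 on average. This receptor is the main target of classical psychedelics and is dense in neocortex. The gene lies on chromosome 14 (74640840 to 74709494, plus strand, mm10). It stood at 4.0, 5.47 and 3.83 TPM in PFOS P1-7, at 3.73, 3.13 and 4.66 TPM in PFOS P8-14, and at 4.12, 1.86 and 1.95 TPM in control. Control replicates 2 and 3 were the lowest of all libraries, below every exposed one, whereas control replicate 1 stood among the exposed libraries. The log2 difference from control was 0.62 (SE 0.24, adjusted p = 0.238) in PFOS P1-7 and 0.45 (SE 0.24, adjusted p = 0.478) in PFOS P8-14. Without control replicate 1 it was called in both, at 0.89 (adjusted p = 0.0165) and 0.72 (adjusted p = 0.0412), where 18.5% and 12.1% of all tested genes were called too. Over leaving out each of the 9 libraries in turn it ranged from 0.47 to 0.89 in PFOS P1-7 and from 0.30 to 0.72 in PFOS P8-14. In the 2 remaining controls the length trend is more negative than in any exposed library, and the Htr2a transcript is long, at 5606 bases. Htr5a, with a median transcript of 5376 bases, differed from control by 0.04 and -0.04 with all controls in the fit. Without control replicate 1 its differences were 0.26 in PFOS P1-7 and 0.18 in PFOS P8-14, not called. The part of the trend in the Htr2a values was not tested. Once the trend over length and GC content was taken out of all libraries the differences were 0.37 and 0.28, and with control replicate 1 left out as well they were 0.56 (adjusted p = 0.0573) and 0.47 (adjusted p = 0.101), not called, where 10.9% and 7.65% of all genes were.

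Htr1b encodes a receptor that sits mainly on axon terminals, where it limits transmitter release. The gene lies on chromosome 9 (81628291 to 81633828, minus strand, mm10). Its level was 3.87, 7.92 and 7.09 TPM in PFOS P1-7, 4.41, 3.62 and 5.15 TPM in PFOS P8-14, and 5.65, 1.41 and 3.57 TPM in control. The highest library held 5.62 times the lowest, the widest range of the 8 genes, and the controls alone covered much of it. The log2 difference was 0.75 (SE 0.35, adjusted p = 0.286) in PFOS P1-7 against control, with an interval of -0.03 to 1.54, and 0.36 (SE 0.35, adjusted p = 0.659) in PFOS P8-14 against control. Without control replicate 1 the first was 1.09 (adjusted p = 0.0456), a call, where 18.5% of all tested genes were called too. Without control replicate 2 the second was -0.04. With the trend over length and GC content taken out and control replicate 1 left out, the first was 0.84 (adjusted p = 0.116). The neocortex and subiculum marker list, tissue that borders the hippocampus, summed to 126.2 to 173.6 TPM in PFOS P1-7, 122.3 to 149.5 TPM in PFOS P8-14 and 109.3 to 192.4 TPM in control. Control replicate 1 had the highest of these sums and also the highest Htr1b and Htr2a of the controls. Of the list, Cux2, Tshz2, Fezf2, Nts and Fn1 were highest of the controls there, but Rorb and Lamp5 were not. In control replicates 1 to 3 Rorb stood at 3.29, 4.40 and 3.37 TPM and Lamp5 at 39.17, 42.87 and 35.41 TPM. The part of neighbouring tissue in these values was not tested.

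Htr1a encodes the inhibitory receptor of pyramidal and granule neurons, which opens potassium channels. It lies on chromosome 13 (105443639 to 105448122, plus strand, mm10), a gene with a single annotated transcript. It stood at 15.3, 19.8 and 18.0 TPM in PFOS P1-7, at 16.1, 13.2 and 16.7 TPM in PFOS P8-14, and at 16.4, 19.0 and 14.9 TPM in control. It had the narrowest range of the 8 genes, with 1.5 times the lowest level in the highest library. The difference from control was 0.07 (SE 0.13, adjusted p = 0.783) in PFOS P1-7 and -0.12 (SE 0.13, adjusted p = 0.693) in PFOS P8-14, with 95% intervals of -0.23 to 0.37 and -0.43 to 0.18. Htr5a, the third Gi/o-coupled member, stood at 4.34, 6.30 and 3.26 TPM in PFOS P1-7, at 4.12, 3.79 and 4.78 TPM in PFOS P8-14, and at 6.24, 3.28 and 3.92 TPM in control. Its groups overlapped almost fully, with differences from control of 0.04 (SE 0.24, adjusted p = 0.937) and -0.04 (SE 0.24, adjusted p = 0.955).

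Htr4 was the only member whose groups separated. The receptor raises cyclic AMP in hippocampal neurons, and the gene lies on chromosome 18 (62324204 to 62496577, plus strand, mm10). It stood at 5.92, 5.70 and 4.76 TPM in PFOS P1-7 (mean 5.46 ± 0.616 SD, n = 3), at 5.56, 5.09 and 5.91 TPM in PFOS P8-14 (5.52 ± 0.411, n = 3), and at 4.43, 4.48 and 3.88 TPM in control (4.26 ± 0.333, n = 3). Each of the 6 exposed libraries was above each of the 3 controls. Of all tested genes, 12.3% were above control in this way in PFOS P1-7, 7.31% in PFOS P8-14 and 4.85% in both, so such a separation was not rare in this table. No member lay wholly below control, as 6.56% of genes did in PFOS P1-7 and 5.99% in PFOS P8-14. None separated PFOS P8-14 from PFOS P1-7 in either direction, where 1.90% of genes were above and 4.15% below. The log2 difference was 0.29 (SE 0.13, adjusted p = 0.259) in PFOS P1-7 and 0.31 (SE 0.13, adjusted p = 0.443) in PFOS P8-14, not called in either. Leaving out single libraries kept it within 0.24 to 0.37 and 0.26 to 0.36. The choroid marker mean as a covariate gave 0.35 and 0.36. Median-of-ratios scaling gave 0.22 and 0.26, and taking out the trend over length and GC content gave 0.21 and 0.24. Under both of these the unadjusted limma p exceeded 0.05 in each comparison (0.0927 and 0.0553 with the scaling, 0.118 and 0.0731 without the trend). The difference between the exposure windows was 0.02 (SE 0.13), with an interval of -0.26 to 0.30.

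Htr7, the other Gs-coupled member, is expressed in CA3 and thalamus in rodents. The gene lies on chromosome 19 (35958734 to 36057507, minus strand, mm10). It stood at 8.43, 6.60 and 7.45 TPM in PFOS P1-7, at 9.73, 8.26 and 7.06 TPM in PFOS P8-14, and at 6.06, 7.41 and 8.39 TPM in control. Its groups overlapped, but each of the 5 libraries with high Ttr was above each of the other 4, as for Htr2c. The ependyma (ventricle lining) list split the libraries likewise, with sums of 102.6 to 142.1 TPM in these 5 and 48.3 to 71.5 TPM in the other 4. The thalamus list overlapped, at 74.9 to 110 TPM and 62.0 to 79.5 TPM. The part of any of these tissues in the Htr7 values was not tested. The slope on the choroid marker mean was 0.09 (SE 0.03, adjusted p = 0.292), not called. The difference from control was 0.04 (SE 0.15, adjusted p = 0.902) in PFOS P1-7 and 0.17 (SE 0.15, adjusted p = 0.627) in PFOS P8-14, and with that mean as a covariate it was -0.10 and 0.05. No member was lower in the 5 libraries in that way, as 0.809% of tested genes were.

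Htr3a, the channel subunit, lies on chromosome 9 (48899213 to 48911099, minus strand, mm10). It stood at 16.5, 14.9 and 13.75 TPM in PFOS P1-7, at 15.8, 17.4 and 14.2 TPM in PFOS P8-14, and at 9.90, 15.8 and 14.6 TPM in control. Control replicate 1 was below all other libraries, and the remaining 8 lay between 13.75 and 17.4 TPM. The difference from control was 0.18 (SE 0.16, adjusted p = 0.553) in PFOS P1-7 and 0.24 (SE 0.16, adjusted p = 0.544) in PFOS P8-14. Without control replicate 1 they were -0.01 and 0.05. Markers of the interneuron classes that carry Htr3a summed to 1353 to 1619 TPM in PFOS P1-7, 1311 to 1809 TPM in PFOS P8-14 and 1615 to 2011 TPM in control. Most of that sum is Cck, at 1031 to 1326 TPM in PFOS P1-7, 927.7 to 1475 TPM in PFOS P8-14 and 1234 to 1701 TPM in control. The list also shares Prox1 with the dentate granule neuron list. The lowest sums were in replicate 1 of PFOS P1-7 and of PFOS P8-14, where Htr3a stood at 16.5 and 15.8 TPM. A sum carried mostly by 1 gene does not measure these interneuron classes as a whole. Their part in the Htr3a values was not tested.

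**Figure D2:**
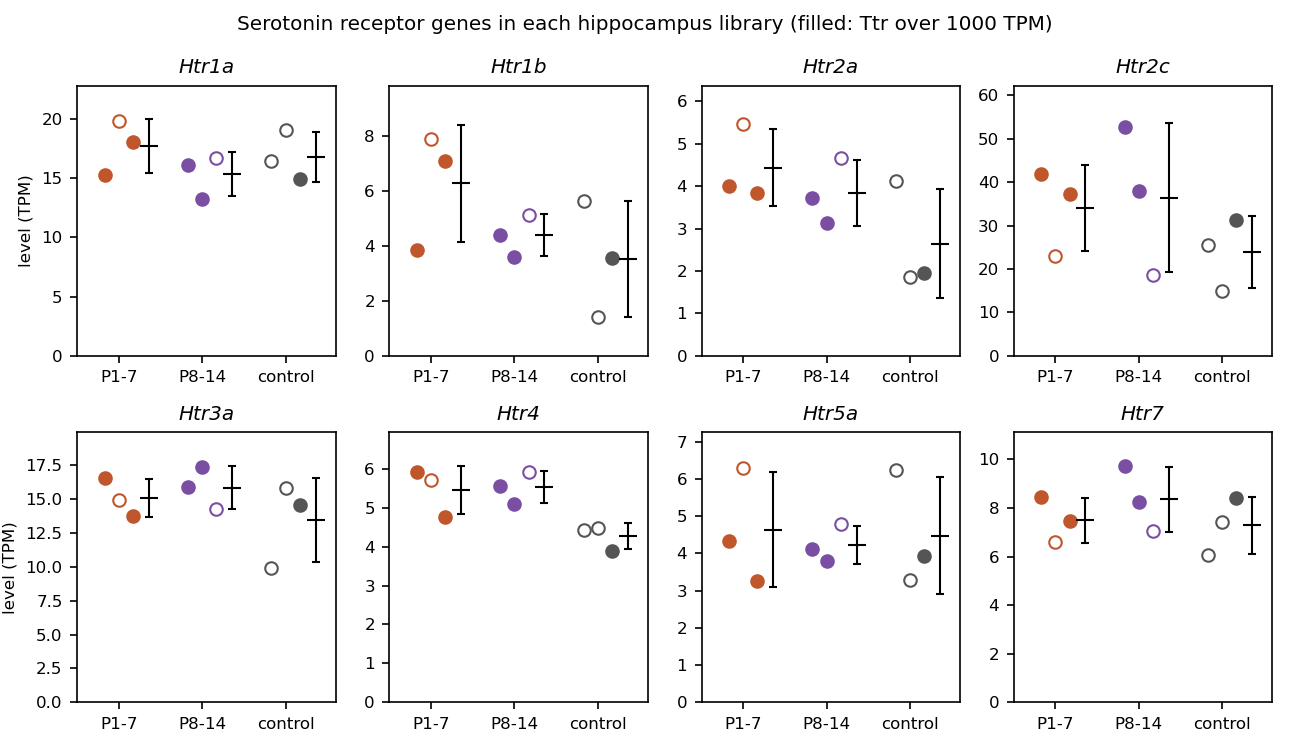
Level of each serotonin receptor gene in TPM in the 3 libraries of PFOS P1-7, PFOS P8-14 and control, 1 point per library, filled where Ttr exceeds 1000 TPM, with the group mean and SD as a bar beside the points (n = 3). Htr4 is the only panel in which all exposed points lie above all controls, and Htr2c is the panel in which filled and open points separate most widely.

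**Figure D3:**
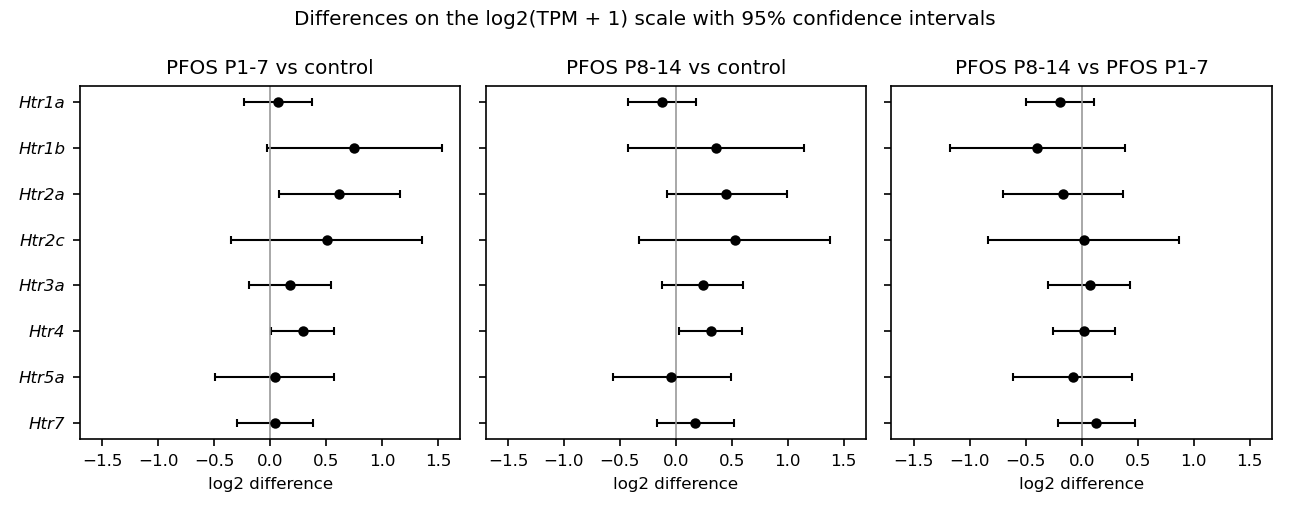
Log2 difference of each gene on the log2(TPM + 1) scale with its 95% confidence interval from limma, for PFOS P1-7 against control, PFOS P8-14 against control and PFOS P8-14 against PFOS P1-7. The interval excludes 0 for Htr2a and Htr4 in the first panel and for Htr4 in the second, before adjustment over all genes, and includes 0 for every gene in the third.

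The 3 most abundant members were the same in every library. Averaged over the 9 libraries, Htr2c stood at 31.4 TPM, Htr1a at 16.6, Htr3a at 14.8, Htr7 at 7.71, Htr4 at 5.08, Htr1b at 4.74, Htr5a at 4.45 and Htr2a at 3.64 TPM. The ranges of Htr3a and Htr7, and of Htr7 and Htr1a, did not overlap. Htr4 was below Htr7 in 9 of 9 libraries. Within the leading 3 the ranges overlapped, with Htr2c above Htr1a in 8 of 9 libraries, the exception being control replicate 2, which has the lowest Ttr. Neighbours at the low end could not be ordered by their spread: Htr4 was above Htr1b in 6 of 9 libraries and Htr1b above Htr5a in 4 of 9.

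The mix of receptor classes followed Htr2c, which alone held 21.9 to 47% of the summed level. The Gq-coupled share is therefore largely a restatement of the Htr2c levels above. Summed over the 8 genes, the level was 100.3, 89.6 and 95.4 TPM in PFOS P1-7, 112.2, 92.4 and 77.03 TPM in PFOS P8-14, and 78.4, 68.2 and 82.4 TPM in control. Gq-coupled receptors held 45.8, 31.7 and 43.1% of it in PFOS P1-7, 50.3, 44.4 and 30.1% in PFOS P8-14, and 37.9, 24.6 and 40.2% in control. The 5 libraries with high Ttr had the 5 highest of these shares. Without Htr2c, the other 7 genes summed to 58.4, 66.7 and 58.15 TPM in PFOS P1-7, 59.5, 54.45 and 58.5 TPM in PFOS P8-14, and 52.8, 53.3 and 51.2 TPM in control. Each exposed library was above each control in that sum, at the closest 54.45 TPM in PFOS P8-14 replicate 2 against 53.3 TPM in control replicate 2. Among single tested genes, 4.85% were above control in this way in both groups. Differences from control were above 0 for 65.5% of all genes in PFOS P1-7 and 62.1% in PFOS P8-14. The sums are of TPM as deposited, without median-of-ratios scaling or removal of the length and GC trend. No p is given for a sum over chosen genes.

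**Figure D4:**
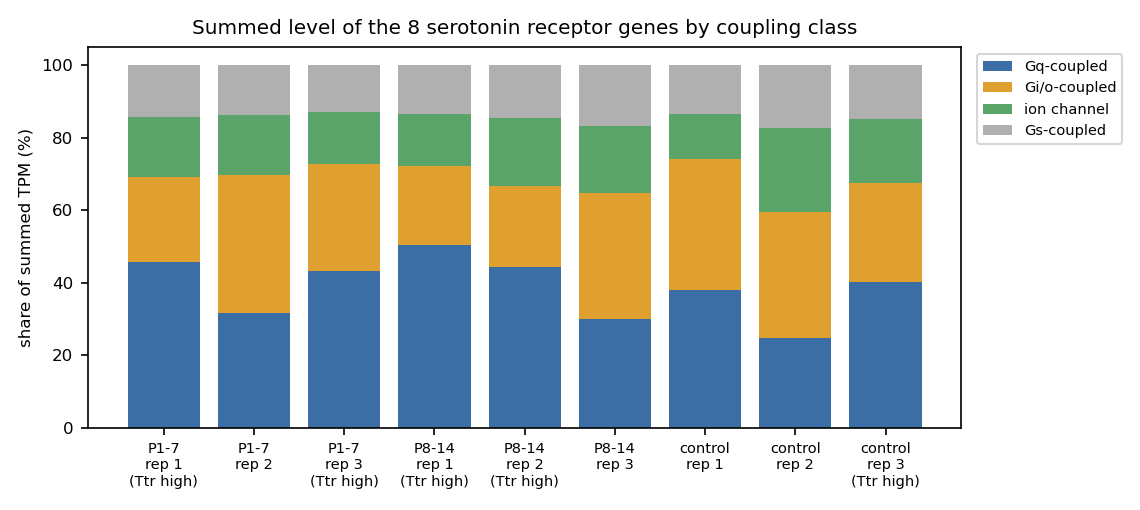
Share of the summed TPM of the 8 genes held by Gq-coupled (Htr2a, Htr2c), Gi/o-coupled (Htr1a, Htr1b, Htr5a), ion channel (Htr3a) and Gs-coupled (Htr4, Htr7) receptors, 1 bar per library. The Gq-coupled share is 40.2 to 50.3% in the 5 libraries with high Ttr and 24.6 to 37.9% in the other 4.

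Genes with the most similar profile over the 9 libraries were found by the mean absolute difference between standardized log2 profiles, among about 11470 genes averaging 5 TPM or more. For Htr2c these were Gas6, a ligand of TAM receptor kinases, and Nid2, a basement membrane protein, at 0.13 and 0.14 against a median of 1.07 over all candidates. For Htr2a they were Atrn and Prepl, at 0.08 and 0.10. For Htr1a they were Cbx5, a heterochromatin protein, and Synpo, an actin-associated protein of dendritic spines, at 0.24 and 0.26. Htr1b ran with Rnf139 and BC026590, Htr3a with Zfp105 and Suv39h1, Htr4 with Pex3, Htr5a with Pde2a and Rpa3, and Htr7 with Ifi30 and Cd59a, at 0.18 to 0.29. Between members, the most alike were Htr1b and Htr2a, at 0.43. Htr2c and Htr7 were at 0.61, and the least alike were Htr1a and Htr7, at 1.53. These are the closest of many genes over few libraries and carry no test.

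Of the remaining serotonin receptor genes, Htr5b and Htr6 had levels within the range of the members, and the others were lower. Htr5b stood at 5.13 to 12.83 TPM and Htr6 at 4.15 to 6.47 TPM over the 9 libraries. Htr1f stood at 0.65 to 1.71 TPM. Htr1d and Htr2b did not reach 1 TPM in any library, and Htr3b, the partner subunit of Htr3a, was listed at 0 in all 9. Tph2, the enzyme that makes serotonin in neurons, stood at 0.79 to 1.67 TPM, and Slc6a4, the serotonin transporter, at 0 to 0.14 TPM. The monoamine oxidase genes, whose enzymes break serotonin down, were higher in level. Maoa stood at 23.3, 22.2 and 22.6 TPM in PFOS P1-7, at 20.3, 21.8 and 22.7 TPM in PFOS P8-14, and at 20.9, 18.8 and 18.2 TPM in control. All 3 PFOS P1-7 libraries were above all 3 controls (difference 0.23, SE 0.09, adjusted p = 0.237), as were 12.3% of tested genes. PFOS P8-14 overlapped with control, and its difference from PFOS P1-7 was -0.07 (SE 0.09). Maob stood at 18.9 to 22.9 TPM in the 6 exposed libraries and at 15.1 to 20.1 TPM in control, and the groups overlapped.

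Of 45 other genes of the serotonin system (receptors, synthesis, transport and breakdown enzymes, receptor partners, G proteins and effectors), 40 were tested and none was called in any comparison. At an unadjusted p below 0.05, 9 were higher and 2 lower in PFOS P1-7 than in control, where 12.5% and 5.79% of all genes were, and 3 were higher and 1 lower in PFOS P8-14, where 6.33% and 4.65% were. Their median difference was 0.17 in PFOS P1-7 and 0.11 in PFOS P8-14, against 0.09 and 0.06 over all genes. The smallest p in both comparisons belonged to S100a10, which encodes p11, a protein that binds the Htr1b and Htr4 receptors. It stood at 31.0, 43.1 and 34.8 TPM in PFOS P1-7, at 40.1, 32.9 and 39.5 TPM in PFOS P8-14, and at 51.8, 63.5 and 61.3 TPM in control. All exposed libraries lay below all controls, as for 3.44% of tested genes, with differences of -0.69 (SE 0.13, adjusted p = 0.181) and -0.64 (SE 0.13, adjusted p = 0.424). These come from the main fit alone. No value with scaling or with the length and GC trend removed is given for this gene. Next came adenylyl cyclase genes, Adcy1 at 247 ± 23.4 TPM in PFOS P1-7 and 165 ± 49.6 TPM in control, and Adcy9 at 51.6 ± 9.58 TPM in PFOS P8-14 and 33.6 ± 16.9 TPM in control (SD, n = 3 each). Between PFOS P8-14 and PFOS P1-7 the smallest p were those of Plcb3, a phospholipase C, at 11.9 ± 0.999 and 13.6 ± 0.897 TPM, and Gnai3, an inhibitory G protein subunit, at 32.3 ± 2.33 and 36.3 ± 3.77 TPM, each with an adjusted p of 0.9998 from limma.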

How the data were processed

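RNA of mouse hippocampus was sequenced in 9 libraries made with a stranded mRNA kit, per the labels' protocols. The authors deposited TPM per gene symbol; each column totals 1000000 apart from rounding. Tools listed in the submitters' processing notes are bcl2fastq, STAR (2.5.3a), RSEM (1.3.3) and fastp (0.21.0), and the build listed there is mm10. The gene annotation is not given in the sources used here.

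Because TPM carry no depth, no counting interval was computed. No 2 columns were identical, and between-library Pearson r was 0.971 to 0.994. Differences were tested with limma (3.58.1, under R 4.3.3) on log2(TPM + 1) with 1 mean per group, no covariate and a mean-variance trend, two-sided, adjusted over 14336 genes. The pipeline was tested on simulated data. Named genes were the 8 members, Ttr, the other serotonin receptors, Tph2, Slc6a4, Maoa, Maob, the 2 serotonin system genes of smallest p in each comparison, and the 2 closest profiles for each member. For Htr4, 1 of these is not reported here. The members and lists were chosen with earlier results of these data known. Sequences are from RefSeq (GRCm38.p6), and upstream windows were taken for 6 of 8 members. Htr3a had no entry among the RefSeq promoters, and Htr4 was left out of this step. Positions and transcript lengths are from GENCODE M21, matched for 93.9% of tested genes. Alternatives covered pseudocounts, filters, scaling, a replicate block, fewer groups, array weights, choroid covariates, the length and GC trend (loess) and leaving out each library. Figures used matplotlib 3.10.9.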

Additional observations from a re-analysis of the deposited data

How the results depend on the processing

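Apart from the plain leave-one-out fits there were 13 settings, including the fit with the trend removed and control replicate 1 left out. In these, differences of the 8 genes kept their direction and their side of the threshold in 82 of 102 values for PFOS P1-7 against control. The counts were 96 of 102 for PFOS P8-14 against control and 99 of 102 for PFOS P8-14 against PFOS P1-7. Array weights (down-weighting variable libraries) called 2 members in PFOS P1-7 against control, Htr1b at 1.14 (adjusted p = 0.0290) and Htr2a at 0.82 (adjusted p = 0.0209) in limma, where 20.3% of all genes were called. Without control replicate 1 the calls were Htr1b and Htr2a in PFOS P1-7 and Htr2a in PFOS P8-14. In that setting 18.5% and 12.1% of all tested genes were called. Over leaving out each library, members called ranged from 0 to 2 in PFOS P1-7 and from 0 to 1 in PFOS P8-14, and were 0 between the windows. The filter at 5 TPM dropped Htr2a and Htr5a.

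Directions turned as follows, all without a call; the cause was not tested. In PFOS P1-7 against control, median-of-ratios scaling gave -0.01 for Htr1a, -0.02 for Htr5a and -0.03 for Htr7, and array weights -0.01 for Htr3a and -0.05 for Htr7. The Ttr covariate gave -0.05 and the choroid marker mean -0.10 for Htr7. Removing the length and GC trend gave -0.16 for Htr1a, -0.21 for Htr5a and -0.14 for Htr7. With the Ttr covariate as well it gave -0.10 for Htr1a, -0.01 for Htr2c, -0.14 for Htr5a and -0.25 for Htr7, and without control replicate 1 instead -0.27 for Htr1a, -0.16 for Htr3a, -0.10 for Htr5a and -0.33 for Htr7. In PFOS P8-14 against control, Htr5a was 0.13 with array weights, 0.10 with the Ttr covariate and 0.12 with the marker mean. Removing the trend gave -0.09 for Htr7 with the Ttr covariate, and -0.08 for Htr3a and -0.15 for Htr7 without control replicate 1. Between the windows, Htr2c was -0.05 with array weights and -0.02 with the Ttr covariate, and Htr5a was 0.0022 with the covariate and the trend removed. The fits with the marker mean, with the Ttr covariate and the trend removed, and with the trend removed without control replicate 1 were chosen after seeing the data.

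Leaving out single libraries gave, in PFOS P1-7 against control, -0.01 to 0.17 for Htr1a, -0.01 to 0.30 for Htr3a, -0.16 to 0.26 for Htr5a and -0.07 to 0.13 for Htr7. In PFOS P8-14 against control it gave -0.04 to 0.69 for Htr1b and -0.19 to 0.18 for Htr5a. Between the windows it gave -0.30 to 0.43 for Htr2c, -0.00028 to 0.13 for Htr3a, -0.06 to 0.07 for Htr4 and -0.26 to 0.13 for Htr5a.

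The groups share replicate numbers, but same-numbered libraries did not deviate together in every pair (r of -0.03, 0.23 and 0.51 for PFOS P1-7 with control, 0.17, 0.14 and -0.47 for PFOS P8-14 with control, 0.53, -0.36 and -0.29 between the windows). The fit with a replicate block called 0 members in each comparison, as did the fit without it. TPM hold no depth, so 3 libraries a group and their unequal choroid plexus RNA limit what can be seen.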
